A study of Mus musculus with 4 samples.

Results

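The BCL2 survival family was followed here through 7 genes in bone marrow and spleen of mice with MLL-AF9 (MA9) leukaemia, out of 32285 genes in each count matrix. The members were the Bcl2a1 copies Bcl2a1a, Bcl2a1b and Bcl2a1d, together with Bcl2, Mcl1, Bcl2l1 and Bcl2l11. They were chosen from a measured value, the far lower level of Bcl2a1b in leukaemia cells with Prmt9 knocked down (KD), so that difference is given as a description and supports nothing. Their unique molecular identifiers (UMIs, each standing for 1 captured RNA molecule) were summed per marker-gated cell class and library. The study transplanted MA9 acute myeloid leukaemia (AML) cells carrying a doxycycline (Dox)-inducible shPrmt9 or shCtrl construct into wild-type C57BL/6 recipients. Mice labelled C57BL/6J, aged 6 to 8 weeks, drank Dox for 7 days before cells of both tissues were taken, in the Ctrl groups as well as in the Prmt9 KD groups. There were 4 droplet 3′ libraries, 1 per group and per representative mouse of a group: BM-Ctrl and BM-shPrmt9 from bone marrow, and Spleen-Ctrl and Spleen-shPrmt9. The hairpin was carried by the transplanted cells alone. With 1 library per group no difference could be tested, and the 95% intervals below cover counting error only.

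BCL2 family proteins decide at the mitochondrial outer membrane whether a stressed cell dies. BCL2, MCL1, BCL-xL (from Bcl2l1) and BFL1/A1 (from the Bcl2a1 genes) hold BAX and BAK in check, and BH3-only proteins such as BIM (from Bcl2l11) release them. A1 is a short-lived protein of blood cells that is induced by NF-kB, lymphocytes lean on BCL2, neutrophils on MCL1 and maturing red cells on BCL-xL, and MCL1 and BCL2 are drug targets in AML.

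The 3 Bcl2a1 genes lay on chromosome 9 of GRCm38, the build of the deposited matrices, and are protein-coding genes with 2 exons each in the GENCODE M21 annotation. Bcl2a1d (ENSMUSG00000099974) ran from 88723285 to 88731914 on the minus strand, Bcl2a1a (ENSMUSG00000102037) from 88956900 to 88962419 on the plus strand and Bcl2a1b (ENSMUSG00000089929) from 89199209 to 89207827 on the plus strand. Bcl2 (ENSMUSG00000057329) was on chromosome 1 from 106538178 to 106714274 and Mcl1 (ENSMUSG00000038612) on chromosome 3 from 95658788 to 95663176. Bcl2l11 (ENSMUSG00000027381), from 128126038 to 128162547, and Bcl2l1 (ENSMUSG00000007659), from 152780668 to 152831728, were both on chromosome 2. The annotated Bcl2a1 transcripts of 819, 817 and 863 bases (Bcl2a1a, Bcl2a1b, Bcl2a1d) were 98.2% identical between Bcl2a1a and Bcl2a1b, 98.8% between Bcl2a1a and Bcl2a1d and 99.1% between Bcl2a1b and Bcl2a1d. In the last 500 bases, where 3′ reads fall, 39.7% of the 90-base stretches of Bcl2a1a, 39.4% of Bcl2a1b and 65.2% of Bcl2a1d also occurred in another copy. How UMIs were split among the copies is therefore uncertain, and their sum is given beside them. If shared reads were dropped, the sum would be too low as well, with the largest loss for Bcl2a1d.

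The copies fell by different factors in the KD leukaemia cells, so their start regions are shown for comparison, as RefSeq promoters of GRCm38.p6 from 250 bases before to 50 bases after the start, each at the coordinates in its name. Capitals mark a PU.1-type motif (GAGGAAGT) and an AP-1-type motif (TGANTCA, with any middle base), both searched on both strands.
Bcl2a1a, chr9:88956670-88956969, plus strand: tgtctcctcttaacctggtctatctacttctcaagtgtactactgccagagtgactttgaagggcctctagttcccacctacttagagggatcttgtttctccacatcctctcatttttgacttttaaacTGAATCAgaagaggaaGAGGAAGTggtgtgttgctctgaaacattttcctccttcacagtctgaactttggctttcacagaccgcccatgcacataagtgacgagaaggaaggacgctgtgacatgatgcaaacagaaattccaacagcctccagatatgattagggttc
Bcl2a1b, chr9:89199023-89199322, plus strand: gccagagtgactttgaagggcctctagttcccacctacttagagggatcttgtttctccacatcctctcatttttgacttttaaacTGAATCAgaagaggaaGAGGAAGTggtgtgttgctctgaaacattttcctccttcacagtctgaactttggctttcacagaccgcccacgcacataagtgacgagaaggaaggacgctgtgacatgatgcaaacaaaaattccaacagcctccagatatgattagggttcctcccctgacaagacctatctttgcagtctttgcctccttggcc
Bcl2a1d, chr9:88731801-88732100, minus strand: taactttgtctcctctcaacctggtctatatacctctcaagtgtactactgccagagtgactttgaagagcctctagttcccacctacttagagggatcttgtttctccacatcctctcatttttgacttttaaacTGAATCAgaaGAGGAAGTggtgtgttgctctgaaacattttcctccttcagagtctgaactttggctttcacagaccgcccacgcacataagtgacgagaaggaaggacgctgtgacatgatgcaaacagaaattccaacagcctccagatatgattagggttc
The 3 windows were 97.96% to 99.2% identical where they aligned. Each held the PU.1-type motif, found in 3.20% of 32851 promoters of this length, and the AP-1-type motif, found in 7.81%. The latter read TGAATCA in each window. The PU.1-type motif began 104 bases before the start in Bcl2a1a and Bcl2a1d and 148 before it in Bcl2a1b. The AP-1-type motif began 120, 164 and 114 bases before the start in Bcl2a1a, Bcl2a1b and Bcl2a1d. All these distances were counted from the RefSeq starts, which differ from the GENCODE starts printed above. The windows of Bcl2a1a and Bcl2a1b were anchored at different points of nearly the same sequence. Their differing distances thus reflect the annotated start, and no promoter difference is read from them. A consensus NF-kB motif, found in 1.63% of promoters, was in 0 of the 3 windows. Matches are descriptions of letters, and binding was not measured.

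The matrices held 8648 to 11315 barcodes and 84009744 to 188030429 UMIs per library, and any pair of libraries shared 13 to 35 barcodes. Of 7545 to 10175 cells kept, 6430 to 9564 entered 1 of 18 classes, named only by fixed marker genes. MA9-like cells, gated on the leukaemia genes Hoxa9, Hoxa10, Hoxa7, Hoxa5, Meis1 and Pbx3, numbered 1482 in BM-Ctrl, 1947 in BM-shPrmt9, 40 in Spleen-Ctrl and 183 in Spleen-shPrmt9. The MA9 gate took priority, so cells that also passed a neutrophil, monocyte or dendritic gate were still classed as MA9-like. Whether some of them were normal cells of those lineages was not tested. These 6 markers summed to 426 to 634 counts per 1000000 UMIs of the class (CPM) in MA9-like cells, with 0 of the 6 at 0. They summed to 198 to 249.8 CPM in progenitor-like cells and to 0.542 to 113 CPM in the other compared classes. Mature neutrophil markers, which normal neutrophils and maturing leukaemia cells share, summed to 5952, 27900, 54793 and 141141 CPM in MA9-like cells, in the order of the cell numbers above. B-cell markers summed to 10.4, 2.57, 60.04 and 35.6 CPM in the same order. Prmt9 itself was at 11.1 CPM (975 UMIs) in MA9-like cells of BM-Ctrl and 6.29 CPM (630 UMIs) in BM-shPrmt9, and at 17.7 CPM (26 UMIs) in Spleen-Ctrl and 6.65 CPM (31 UMIs) in Spleen-shPrmt9. Xist was found in 13.8% of MA9-like cells of BM-shPrmt9 and 0.607% of those of BM-Ctrl, and in 32.0% to 96% of cells of the other BM-shPrmt9 classes. In BM-Ctrl the other classes had Xist in 0% to 2.71% of cells, except 20% to 35.8% in T-like classes, and in the spleen libraries Y-linked genes were found in 21.2% to 89.4% of cells of the other classes and in 7.5% (Spleen-Ctrl) and 9.84% (Spleen-shPrmt9) of MA9-like cells. Over the other classes together Y-linked genes were at 0 (Ctrl) and 0.0151 CPM (KD) in bone marrow against 216 (Ctrl) and 153 CPM (KD) in spleen, so tissue and animal cannot be told apart either. The bone marrow libraries therefore differed in Xist as well as in hairpin. In BM-Ctrl the classes outside the T-like ones mostly lacked Xist and Y-linked UMIs, as MA9-like cells did. Whether those cells came from the host or from the graft was not tested. In each class the hairpin, the animal and this origin cannot be told apart.

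Bcl2a1b was the member with the largest difference in MA9-like cells of bone marrow, 25.6-fold lower in KD. It was at 106 CPM (9304 UMIs) in BM-Ctrl and 4.14 CPM (415 UMIs) in BM-shPrmt9, a ratio of 0.0390 (interval 0.0353 to 0.0431). Bcl2a1a was at 204 CPM (17913 UMIs) and 30.6 CPM (3072 UMIs), a ratio of 0.1501 (0.144 to 0.156). Bcl2a1d was at 27.4 CPM (2401 UMIs) and 1.71 CPM (171 UMIs), a ratio of 0.0623 (0.0531 to 0.0728). All 3 copies were thus lower in the KD library, Bcl2a1a by the smallest factor. Summed over the copies, the level went from 338 to 36.5 CPM, 9.25-fold lower (ratio 0.108, 0.104 to 0.112). The estimated level of free RNA for Bcl2a1b, 2.50 CPM in BM-Ctrl and 0.664 CPM in BM-shPrmt9, lay below both measured levels. A single KD cell held 55 of the 415 Bcl2a1b UMIs (13.3%). In MA9-like cells without an Xist or Y-linked UMI, a choice made after seeing the data, the Bcl2a1b ratio was 0.0300.

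In MA9-like cells of spleen, counted in far fewer cells, the copies were also lower in KD. Bcl2a1b was at 40.3 CPM (59 UMIs) in Spleen-Ctrl and 3.86 CPM (18 UMIs) in Spleen-shPrmt9, a ratio of 0.0960 (0.0533 to 0.165). Bcl2a1a was at 133 CPM (195 UMIs) and 20.2 CPM (94 UMIs), a ratio of 0.152 (0.117 to 0.195). Bcl2a1d was at 12.3 CPM (18 UMIs) and 1.72 CPM (8 UMIs), a ratio of 0.140 (0.0526 to 0.338), and its KD level was at or below the free RNA estimate. The sum of the copies went from 186 to 25.8 CPM (ratio 0.139, 0.111 to 0.173). For Bcl2a1a the spleen ratio lay inside the bone marrow interval, and for Bcl2a1b it lay above it. The spleen values of Bcl2a1b and Bcl2a1d depended on 15 cells of Spleen-shPrmt9 removed for high doublet scores, which held 86 Bcl2a1b and 44 Bcl2a1d UMIs. B-cell markers were at 47.0 CPM in these cells, between the 35.6 CPM of kept MA9-like cells of Spleen-shPrmt9 and the 60.04 CPM of Spleen-Ctrl. That level thus did not set them apart. In Spleen-shPrmt9 520 cells were removed by score, where the doublet caller's own threshold marked 190. Whether the 15 cells were doublets was not tested. With doublets kept, the ratios were 0.504 for Bcl2a1b and 0.826 for Bcl2a1d.

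**Figure D1:**
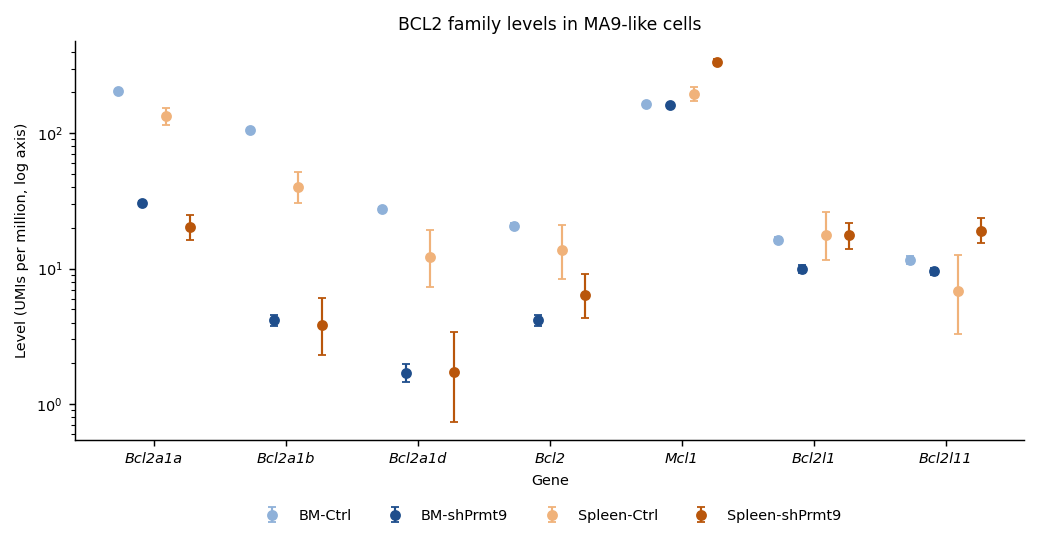
Level of each of the 7 genes (CPM, log axis) in MA9-like cells of the 4 libraries, with 95% Poisson intervals for counting error. The Bcl2a1 copies and Bcl2 were lower in both KD libraries, Bcl2a1b at 106 against 4.14 CPM in bone marrow and at 40.3 against 3.86 CPM in spleen, whereas Mcl1 in bone marrow was at 164 and 162 CPM.

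Because mature neutrophil markers differed between the libraries, MA9-like cells were split after seeing the data into granule-high cells, with at least 20000 CPM of those markers, and granule-low cells. The neutrophil gate had the same CPM limit of 20000. Whether granule-high cells were leukaemia cells or normal neutrophils was not tested. Granule-high cells made up 10.9% of MA9-like cells in BM-Ctrl, 42.8% in BM-shPrmt9, 42.5% in Spleen-Ctrl and 93.4% in Spleen-shPrmt9. In granule-low bone marrow cells (1321 and 1113 cells) Bcl2a1b was at 110 and 4.59 CPM, a ratio of 0.0418. In granule-high bone marrow cells (161 and 834 cells) it was at 52.9 and 3.13 CPM, a ratio of 0.0592. The bone marrow difference was thus present in both subsets, and the lower level of granule-high cells was seen within each library. In spleen the subsets held few cells. Granule-low cells (23 and 12) had 54 and 5 Bcl2a1b UMIs, a ratio of 0.172 (0.0538 to 0.428). Granule-high cells (17 and 171) had 5 and 13, a ratio of 0.410 (0.137 to 1.47), whose interval included 1. Bcl2a1a was lower in both spleen subsets, with ratios of 0.189 in granule-low and 0.191 in granule-high cells.

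Clustering, which left out the 7 genes, placed MA9-like cells of Ctrl and KD bone marrow in mostly separate clusters. The largest Ctrl cluster held 957 MA9-like cells of BM-Ctrl and 1 of BM-shPrmt9, and the largest KD cluster held 0 and 756. In the cluster shared by both, with 83 cells of BM-Ctrl and 614 of BM-shPrmt9, Bcl2a1b was at 21.5 and 2.31 CPM (47 and 45 UMIs), a ratio of 0.108 (0.0699 to 0.165). Bcl2a1a was at 51.7 and 14.97 CPM there, a ratio of 0.289 (0.232 to 0.363). The shared cluster thus had lower Ctrl levels of both copies than MA9-like cells as a whole and a smaller fold. In a second shared cluster, of 24 and 55 cells, Bcl2a1b had 0 UMIs in both libraries, where 3 UMIs would have stood for 9.01 and 2.74 CPM.

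MA9-like cells of the 4 libraries differed in depth, with median totals of 58668, 48018, 34608.5 and 23594 UMIs, so cells were also compared at a fixed depth. Thinned to 2000 UMIs per cell, 12.2% of BM-Ctrl and 0.669% of BM-shPrmt9 MA9-like cells had a Bcl2a1b UMI, and 17.5% of Spleen-Ctrl and 1.09% of Spleen-shPrmt9 cells. The unthinned shares were 63.9%, 12.0%, 50% and 8.20%. Globin-dominated erythroid-like cells, which should lack the gene, had thinned Bcl2a1b shares of 0.227%, 0.161%, 0.730% and 0.296% at median totals of 6843.5, 7149, 11320.5 and 13830 UMIs. Bcl2a1a was found after thinning in 29.7%, 4.78%, 25% and 3.83% of MA9-like cells, and unthinned in 91.7%, 57.6%, 80% and 33.9%. Thinning left out 3 MA9-like cells of BM-shPrmt9 and none of the other libraries, and 29, 38, 3 and 17 globin-dominated cells. The thinned KD shares for Bcl2a1b were below those of Ctrl, and their binomial intervals overlapped those of the erythroid cells of the same library. Thinning left few such cells with a UMI, so this overlap does not place the KD level at that of erythroid cells. Without thinning, Bcl2a1b in BM-shPrmt9 was at 4.14 CPM (415 UMIs) in MA9-like and 0.396 CPM (2 UMIs) in globin-dominated cells. In Spleen-shPrmt9 it was at 3.86 CPM (18 UMIs) and 1.73 CPM (32 UMIs).

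Bcl2, the prototype of the anti-apoptotic members, was also lower in KD MA9-like cells of bone marrow. Its level was 20.6 CPM (1808 UMIs) in BM-Ctrl and 4.16 CPM (417 UMIs) in BM-shPrmt9, a ratio of 0.202 (0.181 to 0.225). The ratio was 0.225 in granule-low cells, 0.292 in granule-high cells and 0.211 in the shared cluster of 83 and 614 cells. In spleen Bcl2 was at 13.6 CPM (20 UMIs) and 6.44 CPM (30 UMIs), a ratio of 0.472 (0.259 to 0.877), against a free RNA estimate of 5.86 CPM in the KD library. That spleen difference was smaller within the subsets, with ratios of 0.698 (0.224 to 1.88) in granule-low and 0.946 (0.325 to 3.75) in granule-high cells. It did not reach 2-fold with doublets kept (0.872), with classes from clusters (0.632) or with TMM factors (0.534).

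Mcl1, which encodes the short-lived anti-apoptotic MCL1, differed little in bone marrow MA9-like cells, at 164 CPM (14345 UMIs) in BM-Ctrl and 162 CPM (16226 UMIs) in BM-shPrmt9. Its ratio was 0.990 (0.968 to 1.01), 0.9198 in granule-low and 0.862 in granule-high cells. In spleen Mcl1 was at 195 CPM (286 UMIs) and 337 CPM (1570 UMIs), a ratio of 1.73 (1.52 to 1.97), and it was higher in KD in granule-low (2.09) and granule-high cells (1.45). Bcl2l1, which encodes BCL-xL, was at 16.2 CPM (1418 UMIs) and 9.93 CPM (995 UMIs) in bone marrow, a ratio of 0.614 (0.566 to 0.666). In spleen Bcl2l1 was at 17.7 CPM (26 UMIs) and 17.6 CPM (82 UMIs), a ratio of 0.992 (0.632 to 1.61); the intervals of both tissues overlapped. Bcl2l11, whose product BIM opposes the other members, was at 11.6 CPM (1015 UMIs) and 9.53 CPM (955 UMIs) in bone marrow, a ratio of 0.823 (0.753 to 0.9004). In spleen it was at 6.82 CPM (10 UMIs) and 19.1 CPM (89 UMIs), a ratio of 2.80 (1.45 to 6.04), which was 1.74 when cells were averaged instead of summed. In granule-low spleen cells it had 9 and 15 UMIs, a ratio of 3.10 (1.27 to 8.04).

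Read against all genes, 4 of the 7 members were at least 2-fold lower in bone marrow MA9-like cells, where 20.3% of genes with at least 20 UMIs over both libraries (2879 of 14196) were past 2-fold either way. Of those 2879 genes, 1061 were lower. In spleen MA9-like cells 5 of the 7 were past 2-fold, 4 lower and Bcl2l11 higher, where 30.5% of genes were. The choice of members used this contrast, so nothing is read from these shares. The median log2 ratio of the members was −2.31 in bone marrow and −1.08 in spleen, beside 0.01 and −0.06 for all genes counted. Over all 21 comparisons of a class within a tissue (12 in bone marrow, 9 in spleen), 126 of 147 member ratios could be formed.

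Genes beside the Bcl2a1 copies on chromosome 9 did not share their difference. Of 16 protein-coding genes within 500 kb of a copy, 11 had a bone marrow ratio, the 3 copies included. The others had bone marrow ratios of 0.688 to 1.82, the lowest being Trim43c with 14 and 11 UMIs and the highest Zfp949. Mthfsl, next to Bcl2a1d, had a ratio of 1.12 and Mthfs, next to Bcl2a1b, a ratio of 0.946. In spleen their ratios ran from 0.371 for Syncrip to 2.87 for Zfp949, and none was as low as those of the copies. The annotation also holds the read-through gene Gm29094 over Bcl2a1b, which is not in the matrices.

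**Figure D2:**
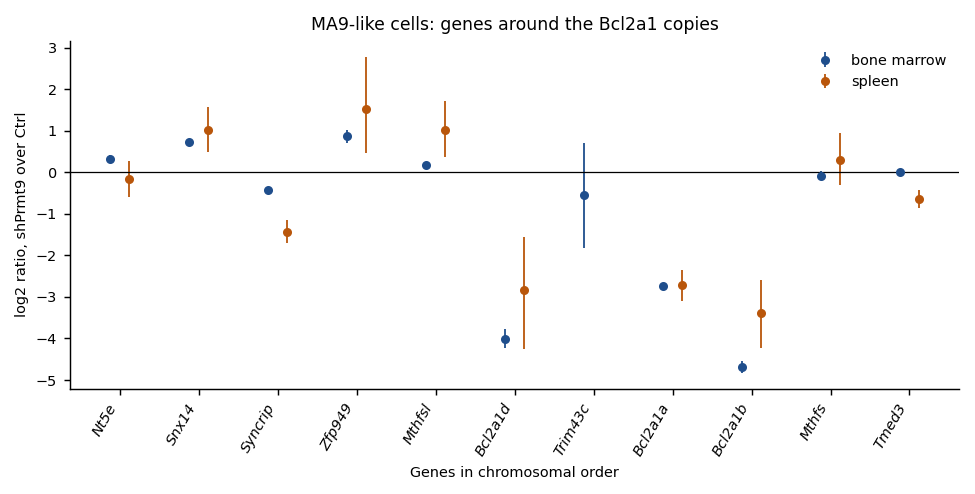
Log2 ratio of KD to Ctrl level (y axis) in MA9-like cells for the 11 protein-coding genes around the Bcl2a1 copies in chromosomal order (x axis), in both tissues, with 95% counting intervals. Bcl2a1b reaches −4.68 in bone marrow, while the ratios of the neighbours there run from 0.688 to 1.82.

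The 62 other genes of the death and survival lists were counted in the same MA9-like cells, where 20.3% of all genes in bone marrow and 30.5% in spleen were past 2-fold. BAX and BAK effectors had 0 of 2 counted genes past 2-fold in either tissue: Bax was at 234 and 343 CPM in bone marrow and 229 and 354 CPM in spleen, and Bak1 at 72.8 and 68.4 CPM and at 101.7 and 72.6 CPM. The list of other anti-apoptotic genes held Bcl2a1c, a related short gene of 1 exon and 444 bases elsewhere on chromosome 9. It had 45 and 9 UMIs in bone marrow (ratio 0.175), and whether it makes an anti-apoptotic protein was not tested. Bcl2l2 of the same list was at 8.40 and 4.45 CPM (ratio 0.530). Of 6 counted BH3-only genes in bone marrow, Bbc3 (PUMA) was lower at 25.3 and 9.57 CPM (ratio 0.378) and Pmaip1 (NOXA, which binds MCL1) at 24.1 and 10.7 CPM (ratio 0.443), while Bik (2.71) and Bmf (2.40) were higher. In spleen 1 of 4 was past 2-fold, Bid at 0.472, and Bbc3 was at 7.51 and 9.44 CPM and Pmaip1 at 12.96 and 8.80 CPM. Of 11 apoptosome and caspase genes 0 passed in bone marrow and 1 in spleen (Endog, 33 and 5 UMIs). Of 5 inhibitors of apoptosis 0 passed in bone marrow and Birc3 was higher in spleen (2.37). MCL1 turnover genes had 0 of 4 past 2-fold in bone marrow and Btrc at 2.02 in spleen (7 and 45 UMIs, 0.905 to 5.32), an interval that included 1.

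The NF-kB list, whose pathway induces Bcl2a1 in many blood cells, had 2 of 12 genes higher and 0 lower in bone marrow MA9-like cells, and 5 of 12 higher and 0 lower in spleen, beside 20.3% and 30.5% of all genes past 2-fold either way there. Of all genes counted, 1818 of 14196 were at least 2-fold higher in bone marrow and 1233 of 9114 in spleen. Nfkbia, which encodes the NF-kB inhibitor that NF-kB itself induces, was at 92.0 and 207 CPM in bone marrow (ratio 2.25) and 220.4 and 572 CPM in spleen (ratio 2.60). Survival cytokine receptors had 3 of 16 higher and 2 lower in bone marrow and 5 of 12 higher and 1 lower in spleen. Csf2rb2, a receptor chain for IL-3, was at 4.36 and 11.1 CPM in bone marrow (ratio 2.56) and 7.51 and 33.3 CPM in spleen (ratio 4.43). The lists' median log2 ratios in bone marrow and spleen were −1.72 and 0.03 for other anti-apoptotic genes, 0.23 and 0.07 for effectors, −0.39 and −0.44 for BH3-only genes, 0.30 and 0.14 for apoptosome genes, 0.16 and 0.43 for inhibitors of apoptosis, −0.15 and 0.94 for NF-kB, −0.26 and 0.01 for MCL1 turnover and 0.41 and 0.69 for receptors. For the other anti-apoptotic genes these medians rested on only 2 counted genes in bone marrow (Bcl2l2 and Bcl2a1c) and 1 in spleen (Bcl2l2). The lists were chosen with earlier results known, and these counts carry no test. Unlike the members, these list genes were not split into granule-low and granule-high cells. The part of the differing granule-high shares in their ratios was not tested.

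Progenitor-like and immature neutrophil-like cells of bone marrow also had less Bcl2a1b in KD. Cells with at least 200 CPM of the progenitor marker Mpo were kept out of MA9-like cells, even where they passed the leukaemia-gene gate. Progenitor-like cells of bone marrow (172 and 108 cells) carried some MA9 marker signal, and whether some were leukaemia cells was not tested. No cluster was classed as progenitor-like, so clustering gave no alternative for this class. In these cells Bcl2a1a was at 100.1 and 6.68 CPM (656 and 20 UMIs), a ratio of 0.0667 (0.0405 to 0.104). Bcl2a1b was at 28.7 and 2.67 CPM (188 and 8 UMIs), a ratio of 0.0931 (0.0396 to 0.187), and Bcl2a1d at 8.55 and 3.34 CPM, a ratio of 0.391 that was 0.502 with doublets kept. Those were 3 of 7 members past 2-fold, where 15.6% of genes were. The progenitor-like levels of Bcl2 (24.6 and 26.7 CPM), Mcl1 (126 and 168 CPM), Bcl2l1 (9.77 and 6.68 CPM) and Bcl2l11 (11.8 and 15.4 CPM) differed by less than 2-fold. In this class 0% of BM-Ctrl and 83.3% of BM-shPrmt9 cells had Xist, so that Ctrl and KD progenitor-like cells differed in this too, and its part in the result was not tested. In immature neutrophil-like cells of bone marrow (641 and 1445 cells) Bcl2a1b was at 4.83 and 1.13 CPM (ratio 0.235) and Bcl2a1a at 3.59 and 0.670 CPM, both of the latter at or below the free RNA estimate, so 2 of 5 counted members passed, where 10.6% of genes did. Bcl2a1b over all cells was at 99.4 CPM in BM-Ctrl and 17.6 CPM in BM-shPrmt9. The share of this library level estimated as free RNA was 3.22% and 5.88% in immature neutrophil-like cells. In progenitor-like cells it was 4.54% and 13.8%. The part of free RNA in these Bcl2a1b differences was not tested.

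Mature neutrophil-like cells are short-lived and rely on Mcl1. In bone marrow (3353 and 4309 cells) Mcl1 was at 675 and 714 CPM (ratio 1.06), and 1 of 7 members, Bcl2a1a at 18.4 and 5.25 CPM (ratio 0.285), was past 2-fold, where 10.3% of genes were. That ratio was 0.501 when cells were averaged. Bcl2a1b was at 20.8 and 11.8 CPM there (ratio 0.566), Bcl2a1d at 3.72 and 3.56 CPM (0.957), Bcl2l1 at 25.6 and 13.7 CPM (0.534) and Bcl2l11 at 53.7 and 36.3 CPM (0.675). In spleen (55 and 171 cells) the copies differed more. Bcl2a1b was at 236 and 7.62 CPM (64 and 18 UMIs), a ratio of 0.0323 (0.0180 to 0.0551), and Bcl2a1a at 84.9 and 12.7 CPM (0.1496). Bcl2l11 was at 148 and 32.2 CPM (40 and 76 UMIs), a ratio of 0.218 (0.147 to 0.328), and Mcl1 at 978 and 555 CPM (0.567). Those 3 members were past 2-fold of 5 counted, where 29.3% of genes were, and the level of the copies in Spleen-Ctrl neutrophils lay above that in either bone marrow library.

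Monocyte/macrophage-like cells differed between the tissues. In bone marrow (588 and 284 cells) 1 of 7 members was past 2-fold, Bcl2a1a at 66.3 and 20.1 CPM (0.304, 0.248 to 0.370), where 14.9% of genes were. That direction turned with classes from clusters (2.85) and with cells averaged (1.28). Bcl2a1b was at 88.4 and 78.6 CPM there (0.890), Bcl2a1d at 34.0 and 48.1 CPM (1.41), Bcl2 at 28.3 and 17.7 CPM (0.624), Mcl1 at 415 and 687 CPM (1.65) and Bcl2l11 at 44.6 and 62.1 CPM (1.39). In spleen (20 and 54 cells) all 3 copies were past 2-fold, 3 of 5 counted members, where 23.1% of genes were. Bcl2a1b was at 564 and 204 CPM (0.362), Bcl2a1d at 336 and 128 CPM (0.381) and Bcl2a1a at 245 and 92.4 CPM (0.377), while Mcl1 was at 752 and 1199 CPM (1.59). Monocyte/macrophage-like cells of Spleen-Ctrl had the highest level of each copy among classes with at least 20 cells. Plasmacytoid dendritic-like cells of BM-Ctrl (109 cells, too few in KD) had Bcl2a1a at 79.8, Bcl2a1b at 72.1 and Bcl2a1d at 42.0 CPM.

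**Figure D3:**
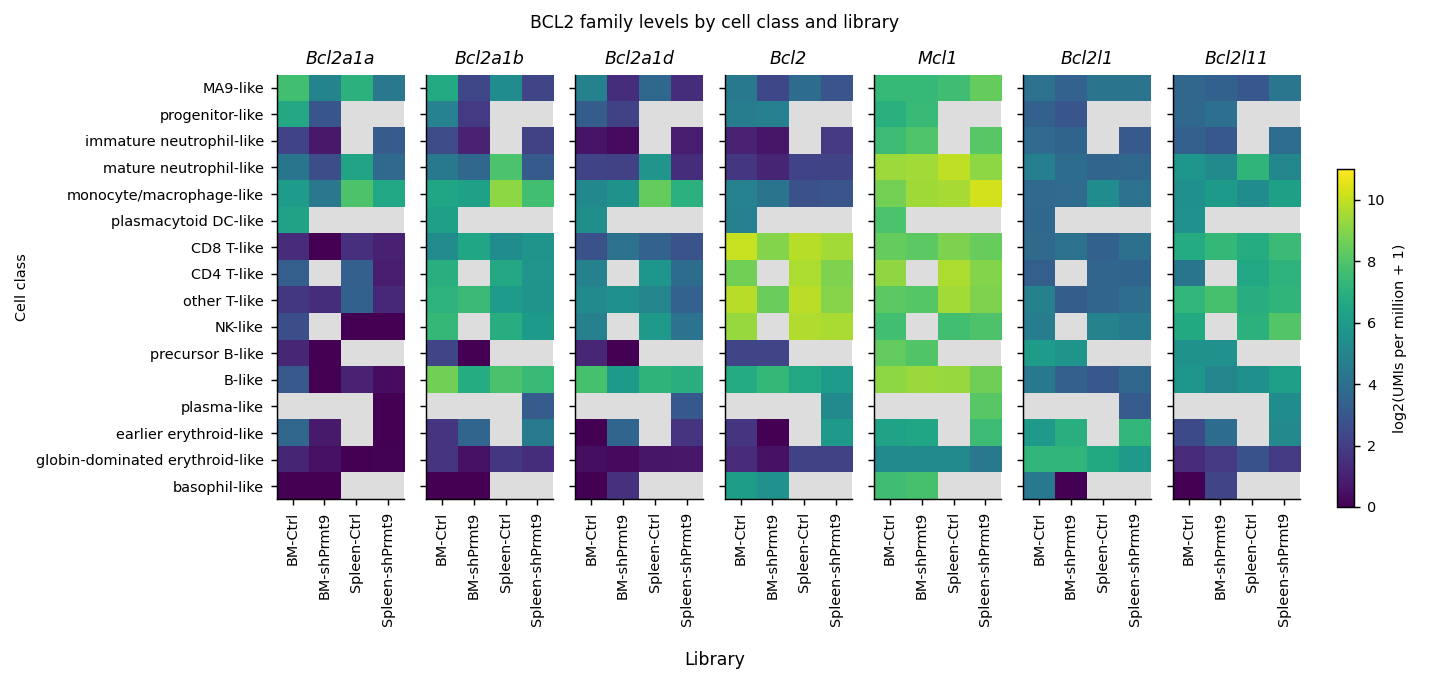
Level of each gene, as log2(CPM + 1), in each marker-gated class (rows) of the 4 libraries (columns), grey where a library had under 20 cells of the class. In each library Bcl2 is highest in a T-like or NK-like class and Bcl2l1 in an erythroid-like class, while Bcl2a1b (564 CPM) and Bcl2a1d (336 CPM) peak in monocyte/macrophage-like cells of Spleen-Ctrl and Mcl1 (1199 CPM) in those of Spleen-shPrmt9.

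Bcl2 had its highest levels in T-like and NK-like cells, and in the T-like classes it was lower in KD. In CD8 T-like cells of bone marrow (148 and 91 cells) it was at 1069 and 493 CPM, a ratio of 0.461 (0.412 to 0.514), and in other T-like cells (129 and 77 cells) at 903 and 360.1 CPM, a ratio of 0.399 (0.341 to 0.465). In spleen it was at 900.3 and 716 CPM in CD8 T-like cells (0.795), 806 and 466 CPM in CD4 T-like cells (0.578), 919 and 515 CPM in other T-like cells (0.560) and 815 and 780.1 CPM in NK-like cells (0.957). Its difference in T-like cells was thus past 2-fold only in bone marrow, where Xist also differed between the libraries. Bcl2l11 was higher in KD in each of these classes. It was at 108 and 159.5 CPM in CD8 T-like cells of bone marrow (1.47) and 111 and 178 CPM in spleen (1.61, 1.498 to 1.74). In spleen it was at 92.0 and 138 CPM in CD4 T-like cells (1.501), 115 and 144 CPM in other T-like cells (1.25) and 132 and 264 CPM in NK-like cells (1.99, 1.62 to 2.46), and in other T-like cells of bone marrow at 154 and 224 CPM (1.46). None of these passed 2-fold.

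Mcl1 in T-like cells was lower in KD in spleen, at 457 and 348 CPM in CD8 T-like (0.762), 805 and 491 CPM in CD4 T-like (0.611) and 709 and 470.0 CPM in other T-like cells (0.663), and at 203 and 245 CPM in NK-like cells (1.203). In bone marrow it was at 341 and 297 CPM in CD8 T-like and 303 and 269.7 CPM in other T-like cells. The copies moved in both directions. In CD8 T-like cells of bone marrow Bcl2a1b was at 38.3 and 86.2 CPM (48 and 74 UMIs), a ratio of 2.25 (1.55 to 3.31) that was 1.83 with cells averaged, and Bcl2a1d at 5.58 and 16.3 CPM (7 and 14 UMIs), a ratio of 2.92 (1.10 to 8.55). In spleen CD8 T-like cells (920 and 1007 cells) Bcl2a1b was at 39.9 and 50.9 CPM (1.27) and Bcl2a1d at 9.92 and 6.13 CPM (0.618). CD8 T-like cells thus had 3 of 6 counted members past 2-fold in bone marrow (Bcl2a1b and Bcl2a1d higher, Bcl2 lower), where 8.59% of genes were, and 0 of 7 in spleen, where 11.6% were.

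In CD4 T-like cells of spleen (432 and 734 cells) 2 of 7 members passed, where 13.3% of genes did. Bcl2a1a was at 9.45 and 0.854 CPM (27 and 5 UMIs), a ratio of 0.0904, and Bcl2a1d at 53.5 and 13.8 CPM, a ratio of 0.258 (0.195 to 0.340) that was 0.524 with classes from clusters, beside Bcl2a1b at 99.0 and 53.1 CPM (0.536). In other T-like cells of spleen (593 and 983 cells) 2 of 7 passed, Bcl2a1a at 9.59 and 1.31 CPM (0.137) and Bcl2a1d at 31.3 and 9.98 CPM (0.319), where 14.4% of genes did. The direction of Bcl2a1d turned there with classes from clusters (2.10), and it was under 2-fold with doublets kept (0.589) and with cells averaged (0.619). In other T-like cells of bone marrow 2 of 6 passed, Bcl2 and Bcl2l1 (27.3 and 8.37 CPM, 22 and 5 UMIs), where 8.46% did. NK-like cells of spleen (72 and 130 cells) had 1 of 6 past 2-fold, Bcl2a1d at 58.2 and 17.3 CPM (0.297, 0.171 to 0.496), where 15.3% of genes were, and Bcl2a1b at 115 and 62.6 CPM (0.547). Bcl2a1a had 0 UMIs in NK-like cells of both spleen libraries.

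**Figure D4:**
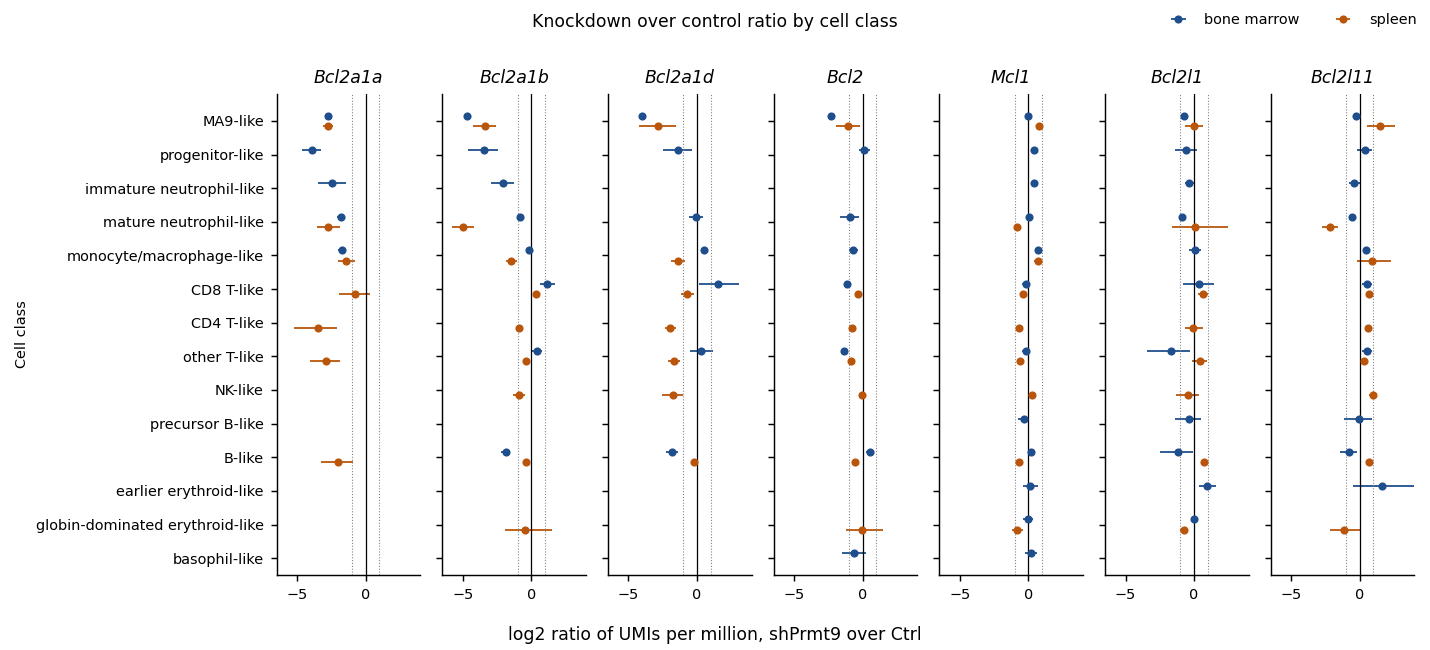
Log2 ratio of KD to Ctrl level (x axis) of each gene by cell class (y axis), in bone marrow (blue) and spleen (orange), for pairs with at least 20 UMIs over both libraries, with 95% counting intervals and dotted lines at 2-fold. Bcl2a1b ranges from a ratio of 0.0323 in mature neutrophil-like cells of spleen to 2.25 in CD8 T-like cells of bone marrow, whereas the Mcl1 ratios lie between 0.562 and 1.73.

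B-like cells were high in Bcl2a1b and Bcl2a1d and held little Bcl2a1a. In bone marrow (998 and 70 cells) Bcl2a1b was at 407 and 112 CPM (2224 and 83 UMIs), a ratio of 0.274 (0.218 to 0.341), Bcl2a1d at 220.3 and 61.9 CPM (0.281) and Bcl2l1 at 20.9 and 9.42 CPM (114 and 7 UMIs, 0.451). These were 3 of 7 members past 2-fold, where 13.6% of genes were. With doublets kept none of the 3 passed, with ratios of 0.535, 0.638 and 0.738. Bcl2a1a went from 7.32 CPM (40 UMIs) to 0 UMIs, a ratio of at most 0.551 at 3 UMIs. In spleen (5679 and 1414 cells) Bcl2a1b was at 226 and 177 CPM (0.782) and Bcl2a1d at 143 and 123 CPM (0.862), and 1 of 7 members passed, Bcl2a1a at 1.08 and 0.274 CPM (52 and 8 UMIs, 0.252), where 17.3% of genes did. That ratio was 1.03 with classes from clusters.

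The remaining members of B-like cells went in opposite directions in the tissues. Bcl2 was at 108 and 159 CPM in bone marrow (1.47) and 94.9 and 65.1 CPM in spleen (0.686). Mcl1 was at 553 and 646 CPM (1.17) and 628 and 385 CPM (0.613), and Bcl2l11 at 53.3 and 31.0 CPM (0.581) and 45.1 and 73.6 CPM (1.63). Bcl2l1 was at 6.97 and 11.5 CPM in spleen (1.66). The bone marrow KD values came from 70 cells. In precursor B-like cells of bone marrow (123 and 27 cells) 0 of 3 counted members passed, where 11.8% of genes did, with Mcl1 at 325 and 261 CPM, Bcl2l1 at 65.5 and 50.7 CPM and Bcl2l11 at 48.8 and 46.8 CPM.

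Bcl2l1 was highest in erythroid-like cells, in which BCL-xL keeps maturing cells alive. In earlier erythroid-like cells of bone marrow (149 and 435 cells) it was at 61.7 and 118 CPM, a ratio of 1.91 (1.27 to 2.99). In globin-dominated erythroid-like cells it was at 152 and 151 CPM in bone marrow (470 and 660 cells, 0.993) and 101.7 and 60.1 CPM in spleen (140 and 1370 cells, 0.590, 0.502 to 0.697). Of 3 counted members in the earlier class, 1 was past 2-fold, Bcl2l11 with 2 and 19 UMIs (3.03, 0.730 to 26.8), whose interval included 1, where 22.7% of genes were. The 15 Bcl2a1d UMIs and 13 of the 15 Bcl2a1b UMIs of the KD library in that class came from 1 cell. Globin-dominated cells had 0 of 2 past 2-fold in bone marrow, where 21.6% of genes were, and 1 of 5 in spleen, Bcl2l11 at 5.88 and 2.66 CPM (10 and 49 UMIs, 0.452, 0.226 to 0.9999), where 33.3% were. That spleen direction turned with classes from clusters (1.42) and without the cell with most UMIs (1.41). Basophil-like cells of bone marrow (41 and 50 cells) had 0 of 2 past 2-fold, where 8.91% of genes were, with Bcl2 at 71.6 and 46.8 CPM (0.654) and Mcl1 at 197 and 224 CPM.

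Within a gene, the classes of BM-Ctrl could be ordered by level. Bcl2 in BM-Ctrl ran from CD8 T-like (1069 CPM, 1013 to 1128) over other T-like (903, 839 to 971), NK-like (627, 549 to 712), CD4 T-like (403, 293 to 542), B-like (108, 99.5 to 117), basophil-like (71.6, 45.9 to 107), monocyte/macrophage-like (28.3, 25.4 to 31.6), plasmacytoid dendritic-like (26.6) and progenitor-like (24.6) to MA9-like cells (20.6, 19.7 to 21.6). The intervals of B-like and basophil-like cells overlapped, as did those of each neighbouring pair from monocyte/macrophage-like to MA9-like cells, so these neighbours could not be ordered. Mature and immature neutrophil-like, precursor B-like and erythroid-like cells had 1.10 to 3.85 CPM of Bcl2. Bcl2a1a in BM-Ctrl was highest in MA9-like cells (204 CPM), then in progenitor-like (100.1), plasmacytoid dendritic-like (79.8, 65.8 to 95.9) and monocyte/macrophage-like cells (66.3, 61.7 to 71.1), of which the latter pair overlapped. Bcl2a1b in BM-Ctrl was highest in B-like cells (407 CPM), followed by NK-like (161, 123 to 207), other T-like (135, 111 to 163), CD4 T-like (119, 63.5 to 204) and MA9-like cells (106, 104 to 108). The intervals from NK-like to CD4 T-like cells overlapped, and that of CD4 T-like cells included the MA9-like level. In BM-shPrmt9, MA9-like cells had less Bcl2a1b (4.14 CPM) than monocyte/macrophage-like (78.6) and mature neutrophil-like cells (11.8), in contrast to BM-Ctrl.

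The mix of copies differed between cell classes, with overlap among the myeloid ones. In MA9-like cells Bcl2a1a made up 60.5% of Bcl2a1 UMIs in BM-Ctrl, 84.0% in BM-shPrmt9, 71.7% in Spleen-Ctrl and 78.3% in Spleen-shPrmt9. Bcl2a1b made up 31.4%, 11.3%, 21.7% and 15% and Bcl2a1d 8.11%, 4.67%, 6.62% and 6.67%. The share of Bcl2a1a was thus larger in KD in bone marrow. In spleen the intervals of the Bcl2a1a share overlapped, and with doublets kept its KD share was 36.1 points lower, below that of Spleen-Ctrl. In progenitor-like cells Bcl2a1a made up 72.9% and 52.6%, in monocyte/macrophage-like cells 13.7% to 35.1% and in mature neutrophil-like cells 22.8% to 57.7%. In B-like cells it made up 0% to 1.15%, with Bcl2a1b at 58.8% to 64.3%. In T-like and NK-like cells Bcl2a1a made up 0% to 9.03% and Bcl2a1b 61.1% to 87.7%. Reads common to the copies could blur these shares, or bias them against Bcl2a1d if such reads were dropped. How such reads were handled is not given in the sources used here.

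**Figure D5:**
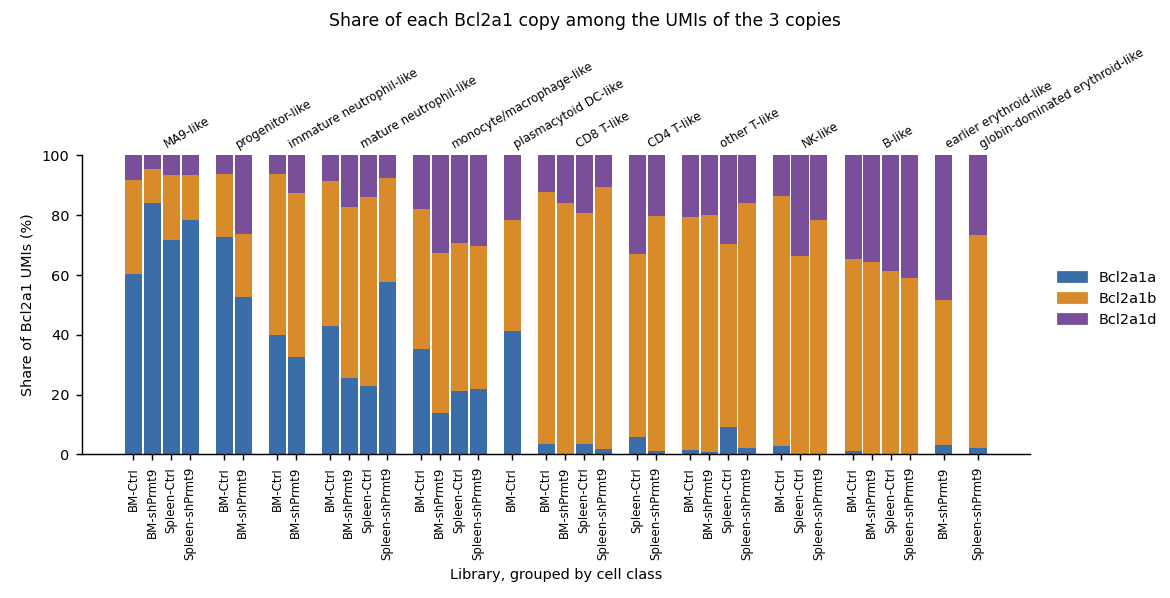
Share of Bcl2a1a, Bcl2a1b and Bcl2a1d (stacked bars, % of the UMIs of the 3 copies) in each class and library with at least 20 such UMIs. Bcl2a1a makes up 60.5% to 84.0% in MA9-like cells and 0% to 1.15% in B-like cells.

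Across 48 points, each a class of a library with at least 20 cells, log2(CPM + 1) levels of Bcl2a1b and Bcl2a1d had a Pearson r of 0.939, those of Bcl2a1a and Bcl2a1b one of 0.363, those of Bcl2a1b and Bcl2l11 one of 0.713 and those of Bcl2l1 and Mcl1 one of −0.539. The points share libraries and depth, so these are descriptions. The gene patterns most like Bcl2a1b were Bcl2a1d, Traf1 (r 0.797), Tnfaip1 (0.785), Gpr132 (0.779) and Syt11 (0.772). Those most like Bcl2 were Crim1 (0.936), Il27ra (0.930), March9 (0.926), Xlr4b (0.911) and 4833403J16Rik (0.908). Those most like Mcl1 were Ptpn1 (0.919), Osbpl9 (0.917), Ncoa3 (0.915), Smg1 (0.913) and Slfn2 (0.911), and those most like Bcl2l1 were Chac2 (0.79999), 5430401H09Rik (0.766), Abcb4 (0.763), Ccdc92b (0.763) and Cachd1 (0.760). By the same measure, added after seeing the data, Bcl2a1a was most like Wfdc17 (0.814) and Bcl2l11 most like Nfkb2 (0.882).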

How the data were processed

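Droplet 3′ single-cell libraries (10x Genomics) of bone marrow and spleen were analysed from the deposited matrices of UMI counts per gene and cell, which the authors made with Cell Ranger 6.1.1 against mm10 (submitters' notes) and did not normalise. Barcodes under 200 genes or over 20% mitochondrial UMIs were dropped, and the highest doublet scores (0.8% per 1000 cells) were removed, since the doublet caller's own threshold marked 0, 1, 128 and 190 barcodes per library (scanpy 1.11.5, Scrublet). No cell annotation was used. Classes were gated on fixed marker genes with limits set after seeing the data, so their sizes may differ from the study's, and Leiden clusters (50 principal components, 15 neighbours, 3000 variable genes without the 7 members, 50 clusters) gave an alternative. Counts were summed per class and library and expressed as CPM of the class. Classes needed 20 cells and genes 20 UMIs over both libraries. Ratios are KD over Ctrl, with exact binomial intervals, levels have exact Poisson intervals, and both cover counting error only, at the 95% level. A count of 0 was given the floor of 3 UMIs. Free RNA was estimated per class from marker UMIs of other lineages. Shares of cells with a UMI were taken after thinning to 2000 UMIs. There was no test and no replicate.

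Members and gene lists were chosen with earlier results of these data known. Named in the text were the members, list genes past 2-fold in MA9-like cells of both tissues, Bax, Bak1, Bbc3 and Pmaip1, genes within 500 kb of a Bcl2a1 copy, and the 5 genes most like Bcl2a1b, Bcl2, Mcl1 and Bcl2l1 among genes with at least 500 UMIs. List genes past 2-fold in 1 tissue were named after their values were seen. Alternatives were classes from clusters, a stricter gate (marker limits raised 2-fold), doublets kept, at least 1000 UMIs and at most 10% mitochondrial UMIs, TMM factors (edgeR 4.0.16, R 4.3.3), the mean of per-cell CPM, leaving out the cell with most UMIs, subtracting free RNA and, for the count of genes past 2-fold, genes with at least 1 UMI. Chosen after seeing the data were granule-low MA9-like cells, MA9-like cells without an Xist or Y-linked UMI, and erythroid totals without erythroid markers. The interval method was tested on simulated data. Positions came from GENCODE M21 (GRCm38) and promoters from RefSeq, with 3 of 3 Bcl2a1 genes matched. The analysis used Python 3.11.15, numpy 2.4.6, scipy 1.17.1, pandas 2.3.3, biopython 1.88 and matplotlib 3.10.9. Neighbours for the Leiden clusters were found with scikit-learn, and the clusters were made with igraph.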

Additional observations from a re-analysis of the deposited data

Results flagged for a closer look

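In 9 cases the interval of a member's KD to Ctrl ratio lay wholly below 1 in one tissue and wholly above 1 in the other, in a class of the same name. The difference between the tissues was not tested, since each rests on 1 library per group and tissue, and Xist and Y-linked genes show that the host differed with the tissue, so tissue and animal cannot be told apart. Bcl2l11 in MA9-like cells had ratios of 0.823 in bone marrow and 2.80 in spleen. In B-like cells Bcl2 had 1.47 and 0.686, Mcl1 had 1.17 and 0.613, Bcl2l1 had 0.451 and 1.66, and Bcl2l11 had 0.581 and 1.63. In T-like classes Bcl2a1b had 1.33 and 0.781 in other T-like cells and Bcl2a1d had 2.92 and 0.618 in CD8 T-like cells. In myeloid classes Bcl2a1d had 1.41 and 0.381 in monocyte/macrophage-like cells and Mcl1 had 1.06 and 0.567 in mature neutrophil-like cells. The KD bone marrow values of B-like cells came from 70 cells. Cells outside the MA9-like class differed in Xist between the bone marrow libraries, and the part of this in these differences was not tested.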

How the results depend on the processing

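The Bcl2a1b ratio in MA9-like cells of bone marrow, 0.0390 as reported, stayed below 1 under each alternative run. It was 0.0289 with classes from clusters, 0.0444 with the stricter gate, 0.0611 with cells averaged, 0.0343 without the cell with most UMIs, 0.0336 with free RNA subtracted and 0.0300 in cells without Xist or Y-linked UMIs, and moved within its interval under the others. The spleen ratio, 0.0960 as reported, was 0.504 with doublets kept, 0.0526 with cells averaged, 0.0241 with free RNA subtracted and 0.172 in granule-low cells. Directions of pairs past 2-fold turned for Bcl2a1a in monocyte/macrophage-like cells of bone marrow (2.85 with classes from clusters, 1.28 with cells averaged) and, in spleen, for Bcl2a1d in other T-like cells (2.10 with classes from clusters), Bcl2a1a in B-like cells (1.03 with classes from clusters) and Bcl2l11 in globin-dominated cells (1.42 with classes from clusters, 1.41 without the cell with most UMIs); the cause was not tested. Of the pairs past 2-fold with an interval that excluded 1, 10 of 37 fell under it with doublets kept, 7 of 37 with cells averaged, 6 of 32 with classes from clusters, 2 of 37 with TMM factors and 0 of 36 with the stricter gate. TMM factors moved the log2 ratios of a class by −0.14 to 0.60, most in globin-dominated cells of spleen, where the share of genes past 2-fold that were higher went from 44.4% to 80.8%. In spleen MA9-like cells the shift was 0.18 and that share went from 44.3% to 57.1%. Counting genes with at least 1 UMI raised the genes past 2-fold from between 463 and 2879 to between 4063 and 8084 per comparison. Copy shares moved by up to 46.2 points when free RNA was subtracted. No paired analysis was possible because each group had 1 library. Depth limits the spleen MA9-like values, which rest on 40 Ctrl cells, and the split among Bcl2a1 copies is limited by the sequence they share.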

Other observations

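Classes too small to compare also held the copies. Conventional dendritic-like cells, of which 6 were counted in BM-Ctrl, 6 in BM-shPrmt9 and 8 in Spleen-Ctrl, had 34, 177 and 231 UMIs of Bcl2a1b and 11, 120 and 110 UMIs of Bcl2a1d. NK-like cells of bone marrow (36 and 9 cells) had 61 and 14 Bcl2a1b UMIs. Plasma-like cells of Spleen-shPrmt9 (41 cells) had Mcl1 at 284 CPM, Bcl2 at 37.2 CPM and 8 UMIs of Bcl2a1b. Earlier erythroid-like cells of Spleen-shPrmt9 (273 cells) had Bcl2l1 at 155 CPM, Mcl1 at 183 CPM and 28 UMIs of Bcl2.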
